A study of Mus musculus with 12 samples.

Results

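The 7 genes that encode NMDA receptor subunits were followed in the prefrontal cortex of mice given repeated cocaine or saline. They were Grin1, Grin2a, Grin2b, Grin2c, Grin2d, Grin3a and Grin3b, and every row of the expression tables that carries one of these names was taken. A row is a locus, a stretch of assembled transcripts with its own identifier, and 1 gene can own several. The members held 8 of 41319 loci in the table of the 2 h groups, 10 of 42527 at 24 h and 9 of 41667 at 7 d.

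Male C57BL/6 mice of 10 weeks received intraperitoneal cocaine at 20 mg/kg per day or saline for 14 days. The prefrontal cortex was taken 2 h, 24 h or 7 d after the final injection, which gave 6 groups of 2 libraries, each of them a pool of 5 mice. No mouse carried a transgene, and each cocaine group had its own saline group of the same time. The level of a gene is its FPKM, fragments scaled to transcript length and to the total of mapped fragments. The deposited tables hold 1 value per group, the authors' pooled value over both libraries. Spread between libraries was therefore not available, no difference below carries an error or a test, and the tables do not give the reads behind each value. Differences are log2 ratios of cocaine over saline after adding 0.1 FPKM to both, and loci with a mean of at least 1 FPKM in the pair of groups were counted. A ratio of 1.2-fold or more in either direction was used to count loci, and it is a size, not a significance threshold.

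NMDA receptors are cation channels opened by glutamate together with glycine or D-serine, and they admit calcium once depolarization has expelled magnesium from the pore. Each receptor joins obligatory GluN1 subunits, the product of Grin1, with GluN2 subunits (Grin2a to Grin2d) that bind glutamate and set the kinetics, or with GluN3 subunits (Grin3a and Grin3b) that bind glycine. In cortex GluN2B prevails early in life and GluN2A joins it as synapses mature. These receptors start several forms of synaptic plasticity, and those of the prefrontal cortex have been studied in models of drug craving.

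In the mouse assembly GRCm38.p6 RefSeq places Grin1 at chr2:25291177-25319187, Grin2a at chr16:9567901-9996083 and Grin2b at chr6:135713221-136173615. It places Grin2c at chr11:115249169-115267297, Grin2d at chr7:45831883-45871194, Grin3a at chr4:49661611-49846023 and Grin3b at chr10:79970397-79977190. Grin3b lies on the plus strand, and the other 6 lie on the minus strand. Grin2b spans 460395 bases and Grin2a 428183, against 6794 for Grin3b. Promoters from RefSeq were matched for 4 members (Grin1, Grin2c, Grin2d and Grin3b), and those of Grin1 and Grin2c are printed because Grin1 was by far the most abundant subunit and Grin2c was the 1 member with a promoter entry that passed 1.2-fold. The Grin1 run is the 250 bases before the annotated start (chr2:25319188-25319437), and the Grin2c run is the 196 bases of that window outside the gene (chr11:115267298-115267493). Both are written along the minus strand with CpG dinucleotides in capitals.
Grin1: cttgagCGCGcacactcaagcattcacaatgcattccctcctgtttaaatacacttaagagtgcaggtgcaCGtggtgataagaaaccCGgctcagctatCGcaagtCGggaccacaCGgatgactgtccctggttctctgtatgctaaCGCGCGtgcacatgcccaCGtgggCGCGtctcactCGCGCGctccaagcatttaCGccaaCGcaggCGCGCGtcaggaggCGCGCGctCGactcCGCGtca
Grin2c: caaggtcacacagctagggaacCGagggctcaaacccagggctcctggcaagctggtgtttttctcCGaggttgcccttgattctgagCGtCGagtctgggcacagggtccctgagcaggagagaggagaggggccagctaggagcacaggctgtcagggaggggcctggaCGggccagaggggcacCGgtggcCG
The Grin1 window held 27 CpG dinucleotides, more than 91.4% of 32851 promoters, whose median was 6. The window of Grin2c held 15. Those of Grin2d and Grin3b lie wholly inside the RefSeq gene spans, before starts further in, and held 9 and 2. GC boxes (GGGCGG, both strands, overlaps counted) occurred 3 times in the Grin2c window, all in the 54 bases inside the gene that are not shown, and not in the other 3, whereas 32.7% of all promoters held at least 1. The letters of the cAMP response element (TGACGTCA, in 1.55% of promoters) and of the AP-1 site (TGACTCA or TGAGTCA, in 4.46%), searched on both strands, were in none of the 4 windows.

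Markers of excitatory cortical neurons were plentiful, with Slc17a7, the vesicular glutamate transporter of cortical pyramidal cells, between 466 and 532 FPKM in the 6 groups. Olfactory bulb markers summed to between 6.65 and 7.81 FPKM, most of it from a locus named for both Doc2g and Nudt8. Ttr, a transcript made in quantity by the choroid plexus, gave log2 ratios of -1.83, -0.66 and 4.11 in time order and read 0.284 FPKM in the saline and 6.54 in the cocaine group of 7 d. Kcnj13, the other choroid plexus marker with a mean of at least 1 FPKM, gave 0.30, 0.07 and 0.08. Of 6 choroid plexus markers 4 stayed under 1 FPKM at each time, Otx2 at or near 0 among them. Their part in the values below was not tested.

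Grin1 was the most abundant member in every group. Its saline levels were 97.0, 103 and 90.5 FPKM in the order 2 h, 24 h and 7 d, and its cocaine levels 106, 110 and 100.3, and values below are given in the same order. The cocaine group was the higher of each pair, by log2 0.13, 0.09 and 0.15. Over the 3 times, however, the saline values (90.5 to 103) and the cocaine values (100.3 to 110) overlapped. Grin1 made up between 71.3% and 73.8% of the summed FPKM of the 7 genes in each group, counting for each gene the locus on its own strand.

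**Figure D1:**
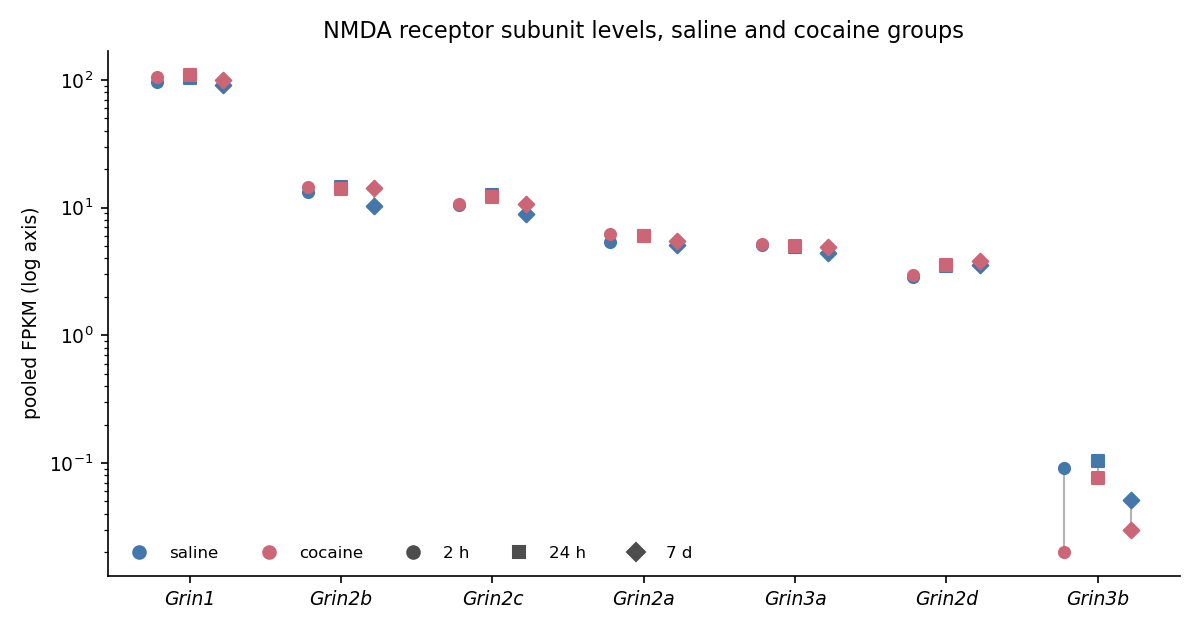
Pooled FPKM (log axis) of the 7 NMDA receptor subunit genes in the saline (blue) and cocaine (red) groups at 2 h (circles), 24 h (squares) and 7 d (diamonds), with a grey line joining each pair. Grin1 stands near 100 FPKM, the middle 5 genes between 2.86 and 14.6, and Grin3b at or below 0.104.

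Grin2b, which encodes GluN2B, was the most abundant of the GluN2 genes. Its level was 13.3, 14.4 and 10.2 FPKM in the saline groups and 14.6, 13.9 and 14.2 in the cocaine groups. The log2 ratios were 0.13, -0.06 and 0.48, and the last of these, 1.39-fold, was the largest of any member locus that reached 1 FPKM. At 7 d it exceeded the ratio of 98.8% of the 2941 loci whose mean FPKM lay within a factor of 1.5 of its own.

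The 3 cocaine values of Grin2b stayed within 13.9 to 14.6 FPKM, and the saline value of 7 d was the low point of all 6 groups. The highest saline value was 1.41 times the lowest, a wider range than that of 89.8% of 11433 genes, whose median was 1.16. Against the mean of the 3 saline groups (12.6 FPKM), an alternative added after the values were seen, the 7 d cocaine value gave log2 0.17 and the 7 d saline value -0.31. These levels come from tables normalized separately for each time, so the comparison across times carries that limit.

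Grin2c, the GluN2C gene, known for its expression in cerebellar granule cells and, in cortex, in astrocytes, showed a like pattern. Its main locus read 10.4, 12.6 and 8.85 FPKM in saline and 10.7, 12.2 and 10.7 in cocaine. The log2 ratios were 0.05, -0.05 and 0.27, so only the 7 d pair passed 1.2-fold, at 1.21-fold. Here too the saline value of 7 d was the lowest of the 6, and against the mean of the 3 saline groups the 7 d cocaine value differed by log2 0.01.

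The median of the astrocyte markers lay on the same side of 0 as Grin2c at the 3 times, though Grin2c was near 0 at 2 h and 24 h. These signs were not particular to the astrocyte markers. Grin2b and the medians of endothelial and microglia markers had them too, whereas those of excitatory neuron, interneuron and oligodendrocyte markers did not. All 7 astrocyte markers were measured, and their median log2 ratios were 0.15, -0.18 and 0.15. Their summed level was 443, 501 and 456 FPKM in the saline groups and 488, 446 and 491 in the cocaine groups. At 7 d 6 of the 7 were above 0, between 0.10 for Slc1a3 and 0.33 for Gjb6, and S100b was below it (-0.13). Fewer cells of a type and less RNA per cell cannot be told apart in bulk tissue, and the part of astrocyte content in the Grin2c values was not tested.

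**Figure D2:**
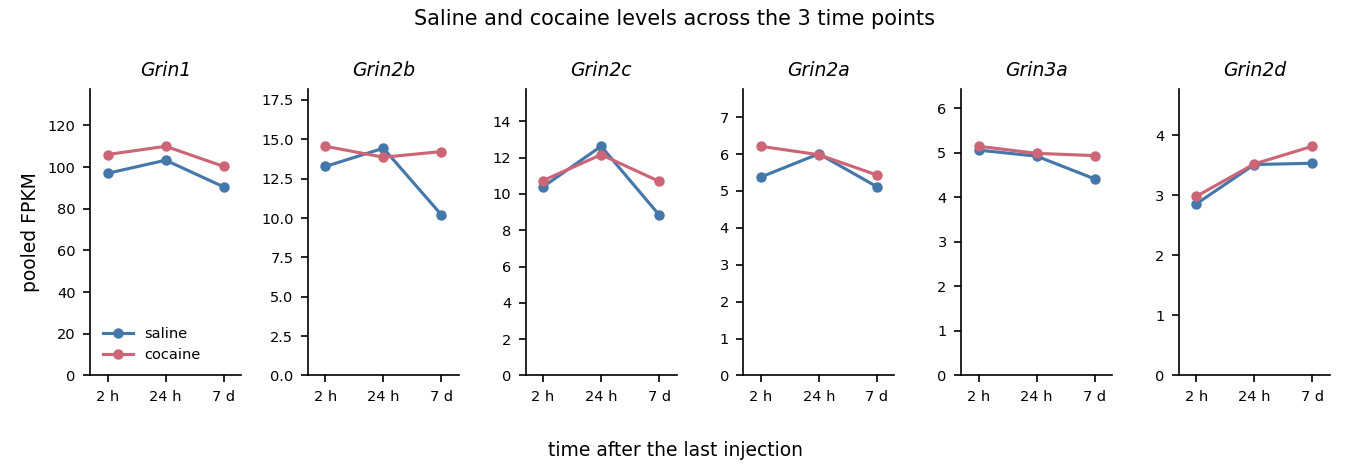
Pooled FPKM (axes start at 0) of 6 subunit genes in saline (blue) and cocaine (red) against the time after the last injection, taken from 3 separately normalized tables. For Grin2b and Grin2c the lines part at 7 d, where the saline groups are at 10.2 and 8.85 FPKM.

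Grin2a, the gene of the mature GluN2A subunit, needs its loci kept apart. Locus identifiers run through each chromosome strand by strand, so the annotated strand of the neighbouring identifiers shows where a locus was placed. That reading was adopted after the values were seen. A Grin2a locus of each table lay among minus-strand neighbours, the strand of Grin2a (34 of 37 at 7 d). Its levels were 5.38, 6.01 and 5.11 FPKM in saline and 6.21, 5.98 and 5.43 in cocaine. The log2 ratios were 0.20, -0.01 and 0.09, none of them past 1.2-fold.

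At 7 d a second locus carried the name Grin2a, and it lay among loci of the opposite strand, with 29 of 30 annotated neighbours on the plus strand. It read 5.49 FPKM in saline and 7.48 in cocaine, a log2 ratio of 0.44 (1.35-fold). In the tables of 2 h and 24 h the same stretch of chromosome 16 held a plus-strand locus without a name. The saline groups had 18.5 and 15.4 FPKM there and the cocaine groups 18.2 and 15.1. No unnamed locus shared that stretch at 7 d. The library kit does not mark strand, so reads from Grin2a and from an overlapping transcript of the other strand cannot be told apart. A 7 d difference in the name Grin2a thus rests on the locus chosen.

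Grin2d, whose product GluN2D is found in the adult forebrain mostly in interneurons, stood at 2.86, 3.52 and 3.54 FPKM in saline and 2.99, 3.53 and 3.82 in cocaine. Its log2 ratios of 0.06, 0.00 and 0.11 were small. A locus of the same name placed on the opposite strand stayed at or below 1.46 FPKM, with log2 ratios of -0.09, 0.15 and 0.05. Interneuron markers also differed little, with a median log2 ratio of 0.03, 0.03 and 0.00 over 7 genes.

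The GluN3 genes, whose subunits lower the calcium permeability of the receptors they join, differed widely in level. Grin3a read 5.06, 4.92 and 4.41 FPKM in saline and 5.14, 4.98 and 4.93 in cocaine, with log2 ratios of 0.02, 0.02 and 0.16. Grin3b, a subunit known mainly from motor neurons, was close to 0 in every group. It read 0.0907, 0.104 and 0.0515 FPKM in saline and 0.0201, 0.0764 and 0.0300 in cocaine, and no ratio was drawn from such levels. Grin3b also shares its stretch with Tmem259, a gene of the other strand at 38.2 to 43.4 FPKM.

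Ordered by their mean over the 6 groups, the levels per length were 101.2 FPKM for Grin1, 13.4 for Grin2b, 10.9 for Grin2c, 5.69 for Grin2a, 4.91 for Grin3a, 3.37 for Grin2d and 0.0621 for Grin3b. Neighbours in this order overlapped over the groups in 2 places. The ranges of Grin2b (10.2 to 14.6) and Grin2c (8.85 to 12.6) overlapped, as did those of Grin2a (5.11 to 6.21) and Grin3a (4.41 to 5.14).

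The mix of GluN2 subunits was then compared within each table. Grin2b held between 36.8% and 42.2% of the summed GluN2 FPKM, Grin2c between 31.1% and 34.5%, Grin2a between 15.9% and 18.5% and Grin2d between 8.66% and 12.8%. The ratio of Grin2a to Grin2b, an index of receptor maturation, was 0.405 and 0.416 in the saline groups of 2 h and 24 h and 0.427 and 0.431 in their cocaine groups. At 7 d it was 0.501 in saline and 0.382 in cocaine with the own-strand locus of Grin2a, but 0.538 and 0.526 with the opposite-strand locus. The choice of locus therefore decided whether this index differed at 7 d. Summed GluN2 over Grin1 was 0.329, 0.354 and 0.306 in saline and 0.325, 0.323 and 0.341 in cocaine, so that cocaine was the lower of the pair at 24 h and the higher at 7 d.

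Of the 27 member loci of the 3 tables, 22 reached 1 FPKM, and 21 lay on the strand of their gene, 4 on the opposite strand and 2 among neighbours of both strands. At 2 h, 0 of 7 loci were 1.2-fold higher in cocaine and 0 were lower, where 10.6% and 7.26% of 13466 loci were. At 24 h the counts were again 0 and 0 of 7, beside 6.27% and 5.72% of 13929 loci. At 7 d 3 of 8 loci were higher and 0 lower, beside 8.3% and 11.9% of 13562 loci. Those 3 were Grin2b, Grin2c and the opposite-strand locus of Grin2a. All 8 loci had a ratio above 0 at 7 d, as had 47.8% of all loci, and the earlier times had 6 of 7 and 4 of 7 loci above 0. The member medians were log2 0.06, 0.00 and 0.15, where those of all loci were 0.02, 0.01 and -0.01. The 8 ratios at 7 d share their 2 groups and are not independent of one another.

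**Figure D3:**
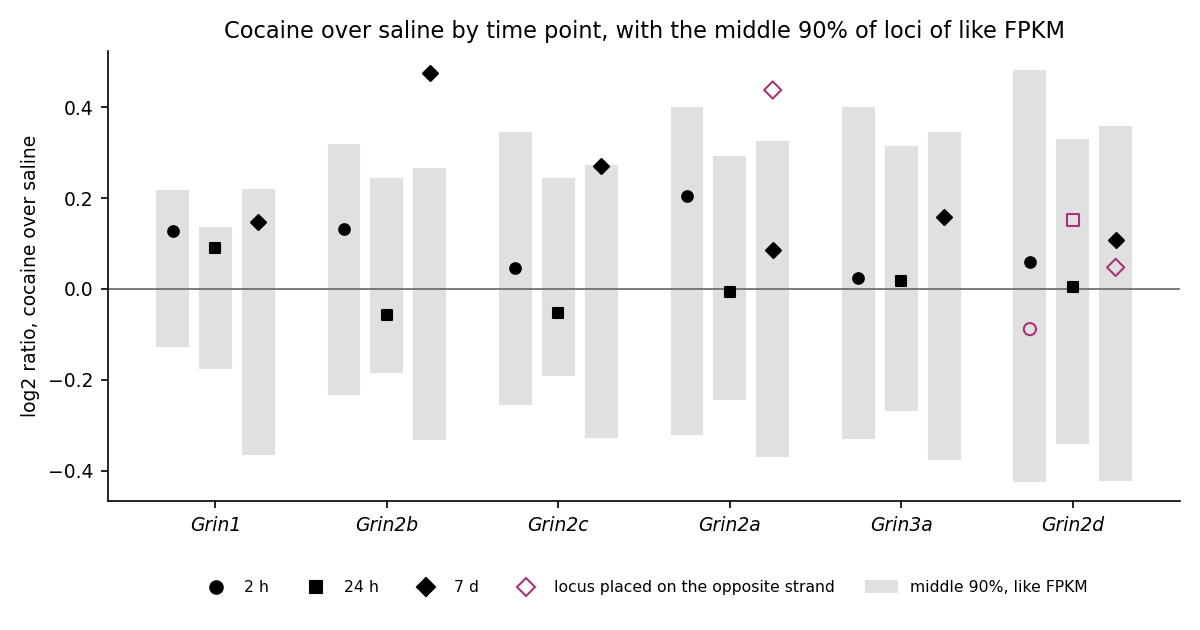
log2 ratio of cocaine over saline for 6 subunit genes at 2 h (circles), 24 h (squares) and 7 d (diamonds), filled for the locus on the gene's own strand and open for one on the opposite strand. Grey bars give the middle 90% of loci of like FPKM, and at 7 d Grin2b (0.48) and the opposite-strand Grin2a (0.44) lie above theirs.

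The saline group of 7 d was the lowest of the 3 saline groups for 6 of the 7 genes, Grin2d being the exception. The same held for 40.8% of 11433 genes at large and for 68.5% of the 3194 with a transcript of at least 4000 nt. The genes at large had a mean of at least 1 FPKM at each time, which Grin3b, 1 of the 6, did not reach. Grin3b, the shortest member, has a transcript of 3283 nt, and the other 6 run from 4276 to 7491 nt. When the cocaine values of the own-strand loci were set against the mean of the 3 saline groups, 0 members passed 1.2-fold in either direction at any time, among those with at least 1 FPKM. On that measure 10.2%, 6.01% and 2.90% of all genes were higher and 9.0%, 5.16% and 5.40% lower at the 3 times.

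Transcript length moved with the ratios at 7 d. In 20 groups of loci by the length of the longest protein-coding transcript, found for 82.2% of the loci, the median log2 ratio climbed from -0.23 in the shortest group to 0.14 in the longest. At 2 h those values were 0.01 and 0.08, and at 24 h -0.02 and 0.03. Grin2b has 7484 nt, and less the median of its group its 7 d ratio was 0.35 instead of 0.48, above 98.6% of the 556 loci of that group. Grin2c fell under 1.2-fold when its group was taken off, from 0.27 to 0.20. At 7 d 16.0% of the loci in the length group of Grin2b were at least 1.2-fold higher, and 10.2% in that of Grin2c and Grin2a. Grin3a went from 0.16 to 0.03 and the own-strand Grin2a from 0.09 to 0.02, so both stood near the middle of loci of their length.

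**Figure D4:**
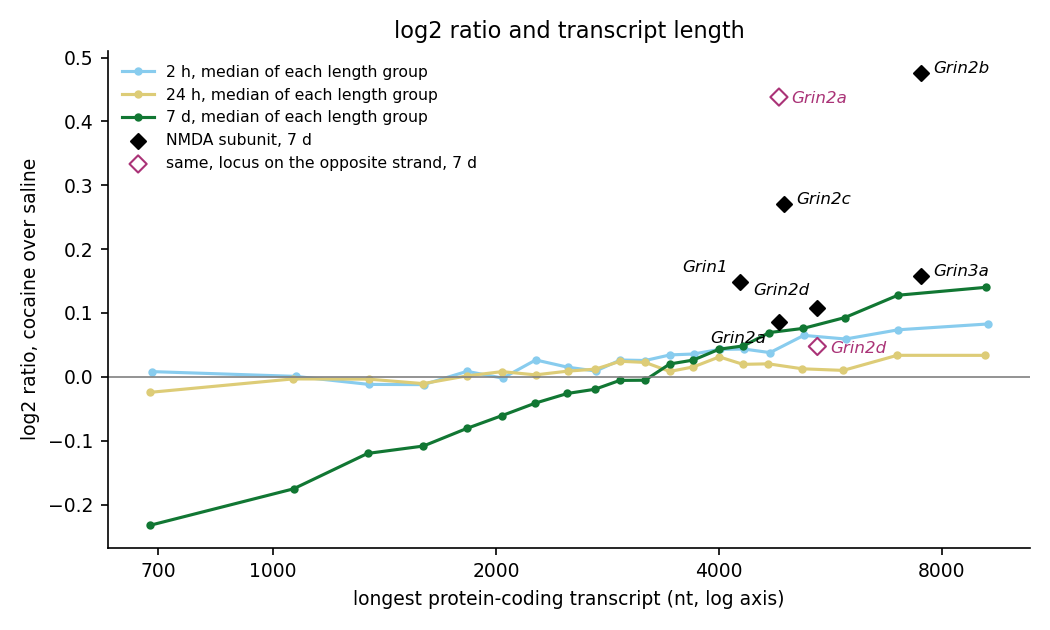
log2 ratio of cocaine over saline against the longest protein-coding transcript (nt, log axis), with the median of each of 20 length groups at 2 h, 24 h and 7 d as lines and the NMDA subunit loci of 7 d as diamonds. The 7 d line climbs from -0.23 to 0.14, and Grin2b at 0.48 lies above it while Grin3a at 0.16 lies close to it.

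Across the 6 groups the levels of Grin1, Grin2a, Grin2b, Grin2c and Grin3a were correlated, which is a description over 6 values that share 3 tables. Pearson's r ran from 0.64 for Grin2c with Grin3a to 0.92 for Grin2b with Grin3a. Grin2d stood apart, with r between -0.47 and 0.11 to the others. The genes most like Grin2b were Arhgef12, Chchd10 and Trim37 (r 0.99 each), and 3.15% of 11431 genes reached 0.9 with it. Those most like Grin2d were Gad1 (r 0.98), Chid1 (0.97) and H2-T22 (0.97), and 0.682% of genes reached 0.9 with it.

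A list of 48 partners of the receptor was set beside it, covering the postsynaptic scaffold, kinases and calcium effectors, supply of the co-agonists, and trafficking. Of these, 46 reached 1 FPKM at each time. Those at least 1.2-fold higher in cocaine numbered 6, 0 and 11, and those lower numbered 0, 1 and 1. Their median log2 ratios were 0.08, -0.03 and 0.09. Of all loci, 10.6%, 6.27% and 8.3% were higher and 7.26%, 5.72% and 11.9% lower. At 7 d the share higher was 5.38% in the shortest length group and 21.5% in the longest. Less the median of the length group of each partner, known for 44 of the 46, the counts were 1, 0 and 6 higher and 0, 1 and 0 lower. The share of all loci past 1.2-fold on this measure was not counted, here or for the partner groups below.

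The scaffold, which anchors NMDA receptors in the postsynaptic density, held most of them. Of 16 scaffold genes 4 were higher at 2 h, 1 was lower at 24 h and 6 were higher at 7 d, and the medians were 0.17, -0.09 and 0.17. With the length groups taken off, 1 scaffold gene was higher at 2 h (Homer1, 0.27) and 3 at 7 d, while Homer3 stayed lower at 24 h (-0.38). Shank1, a master scaffold of excitatory spines, read 42.9, 54.4 and 39.1 FPKM in saline and 53.0, 49.2 and 67.5 in cocaine. Its 7 d cocaine value was the highest of the 6, and its log2 ratio of 0.79, or 0.66 less its length group, was the largest of the list. Shank3 went from 38.0 to 46.3 FPKM at 2 h (0.28) and from 33.4 to 42.4 at 7 d (0.34). Shank2 passed 1.2-fold at 7 d only, from 17.5 to 21.2 FPKM (0.28). Less their length groups, Shank3 (0.21 at both times) and Shank2 (0.14) did not pass. The 7 d cocaine values of Shank3 and Shank2 lay below their saline values of 24 h (45.9 and 22.2 FPKM), across tables normalized separately.

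Homer1, which ties the scaffold to metabotropic glutamate receptors and has a short form made upon activity, went from 35.7 to 44.9 FPKM at 2 h (0.33), but stood at 33.4 and 32.6 at 7 d. Homer2 passed at 2 h (0.27) and 7 d (0.30), but not less its length group (0.19 and 0.16). Homer3 was lower at 24 h, from 3.37 to 2.60 FPKM (-0.37), and higher at 7 d (0.29). The 7 d cocaine values of Homer2 (7.54 FPKM) and Homer3 (2.93) lay below their saline values of 24 h (7.60 and 3.37). Dlg4, which encodes PSD-95, the direct anchor of GluN2 tails, read 269.7 and 304 FPKM at 7 d and did not pass 1.2-fold (0.17).

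Outside the scaffold the partners past 1.2-fold were few. Src, a tyrosine kinase that raises NMDA receptor currents, stood at 22.8 and 29.5 FPKM at 7 d (0.37), and its 3 cocaine values (29.5 to 30.6) lay above its 3 saline values (22.8 to 29.3). Slc6a9, the glial glycine transporter that keeps the co-agonist low at synapses, read 7.25 and 10.0 FPKM at 7 d (0.46), again with all cocaine values (10.0 to 10.3) above all saline values (7.25 to 9.68). Such a separation upward was found in 3 of the 46 partners, the other being Calm3, and in 3.55% of 11433 genes. Slc7a10, a carrier of D-serine and glycine, went from 11.3 to 13.8 FPKM at 7 d (0.28), below its saline value of 24 h (14.5). All 3 genes still passed less their length groups (0.33, 0.44 and 0.34).

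Nos1, the neuronal nitric oxide synthase coupled to the receptor, passed at 2 h (3.43 to 4.18 FPKM, 0.28) and 7 d (2.64 to 3.24, 0.28). Ephb2, an ephrin receptor that binds NMDA receptors, passed at 2 h (3.39 to 4.15 FPKM, 0.29). Apba1, of the complex that carries GluN2B along dendrites, was higher at 7 d (18.8 to 23.3 FPKM, 0.31). Lin7b of the same complex was lower (82.4 to 66.4 FPKM, -0.31). None of these 4 genes passed less its length group, where Nos1 gave 0.20 and 0.14, Ephb2 0.20, Apba1 0.18 and Lin7b, whose transcript is short, -0.077. The 7 d cocaine values of Nos1 and Apba1 lay below their saline values of 24 h (3.59 and 23.6 FPKM).

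The other ionotropic glutamate receptors were set beside the NMDA genes. None of the 4 AMPA receptor genes passed 1.2-fold at any time, and their median log2 ratios were -0.07, 0.05 and -0.06. Of all loci, 10.6%, 6.27% and 8.3% were higher and 7.26%, 5.72% and 11.9% lower, so few would pass in lists this short at those shares. Gria2, whose edited subunit makes AMPA receptors impermeable to calcium, read 65.5 and 61.9 FPKM at 7 d (-0.08). Of the 5 kainate receptor genes only Grik4 passed, at 2 h (4.68 to 5.85 FPKM, 0.31, and 0.26 less its length group, just under 1.2-fold), and the medians were -0.14, 0.06 and 0.00. At 7 d the AMPA median less the length group medians was -0.13, beside 0.066 for the own-strand NMDA loci and 0.15 with the more abundant locus of each name. Whether the families differ was not tested, since no spread between libraries was available.

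**Figure D5:**
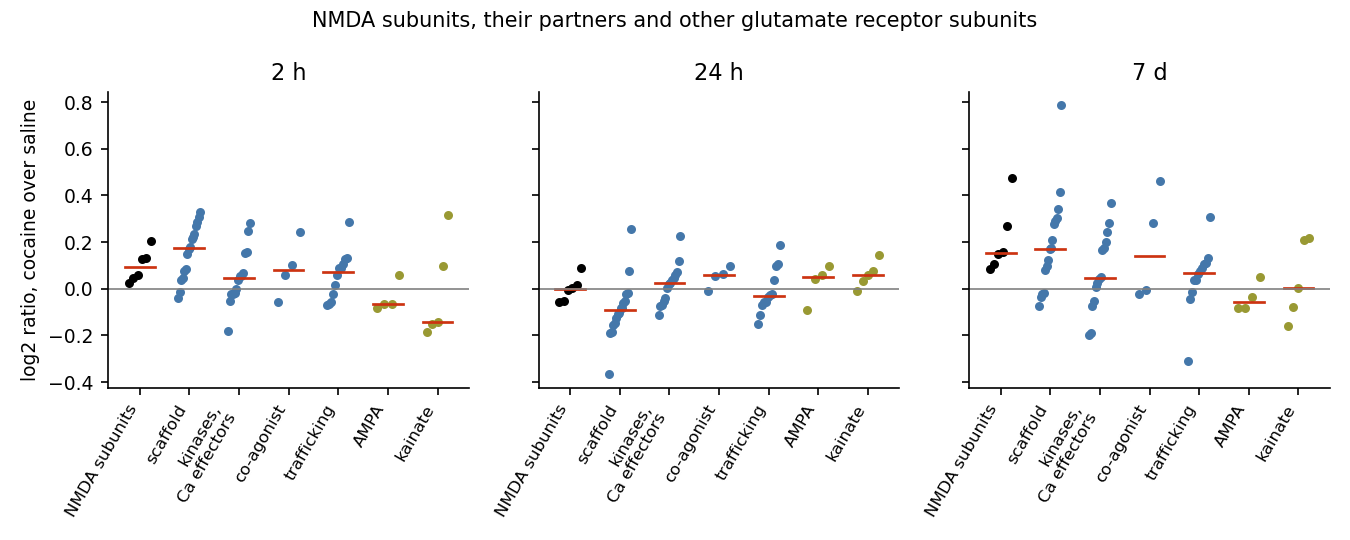
log2 ratio of cocaine over saline for each gene with a mean of at least 1 FPKM in the NMDA subunit list (own-strand loci, black), 4 partner lists (blue) and the AMPA and kainate subunit lists (olive) at 2 h, 24 h and 7 d, with red bars at the medians. Scaffold genes lie mostly above 0 at 2 h and 7 d (medians 0.17) and below it at 24 h (-0.09), with Shank1 at 0.79 on top at 7 d.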

How the data were processed

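Poly(A) RNA was sequenced from 12 libraries. Per the labels, reads were trimmed with Trimmomatic 0.32 and processed with TopHat2 2.0.12, Cufflinks 2.2.1 and Cuffdiff on GRCm38, whereas the study's methods name cutadapt, an earlier Cufflinks and mm9. The sources also differ in the read length and in the number of libraries prepared. The locus positions are those of GRCm38. The authors deposited 1 gene table per time point with pooled FPKM per group, and these values alone were used. The columns of status, fold change, test statistic, p and q hold the authors' own comparison and were left out. Column names alone do not settle which group is saline. The first value was taken as saline, as in the headings of the study's own tables, and Fos and Arc were higher in the second at all 3 times.

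The members and lists were chosen with earlier results of these data known. All 7 members were named. Partner, AMPA and kainate genes could be named where they passed 1.2-fold at any time, as could the 3 genes most like each member by Pearson's r over log2 levels. Dlg4, Gria2 and the single marker genes fell outside that rule and were chosen after their values were seen. Values of 1 partner gene are not reported here. Lists took the locus of highest mean FPKM per gene. A locus was placed on a strand where at least 90% of the annotated neighbours among 25 on each side shared it. Lengths came from GENCODE vM1 by symbol. Alternatives changed the pseudocount, centring, length trend, fold, FPKM filter, locus and saline reference. The steps used Python 3.11.15, pandas 2.3.3 and numpy 2.4.6. Only the log2 ratio and length group steps were tested, on differences planted in the saline values. No test was possible on pooled values.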

Additional observations from a re-analysis of the deposited data

How the results depend on the processing

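The 7 d count of 3 higher member loci became 5 at 1.1-fold, 0 at 1.5-fold and 0 against the mean of the 3 saline groups, an alternative chosen after seeing the data. At 1.1-fold 1 locus was higher at 2 h and 1 at 24 h. With no FPKM filter 1 was lower at 2 h, and 1 was higher and 1 lower at 24 h. The member median at 7 d was log2 0.27 with a mean of at least 5 FPKM and 0.045 against the mean of the 3 saline groups, which gave 0.13 at 24 h. Partner counts at 1.1-fold, in time order, were 16, 3 and 18 higher and 1, 6 and 3 lower. At 1.5-fold no partner was higher at 2 h (0) or lower at 24 h (0), and 1 was higher and 0 lower at 7 d. Taking out the length trend, also added after seeing the data, left 1 higher at 2 h and 6 higher and 0 lower at 7 d. The shares of all loci at 1.1-fold, at 1.5-fold or with the length trend taken out were not counted, so these counts have no background beside them. Under the settings tried, the remaining 78 values of these counts and medians stayed within 1.5 times or within log2 0.1. Own-strand loci alone left 2 higher members at 7 d, and so did taking out the length trend or a pseudocount of 1, both of which put Grin2c under 1.2-fold. No ratio past 1.2-fold changed sign. Ratios and medians near 0 changed sign in 17 cases, none with a reported size above log2 0.085. Against the mean of the 3 saline groups, Grin2b and Grin2c at 24 h went to 0.13 and 0.19, Grin2d at 2 h to -0.14 and Grin2a at 7 d to -0.017, and the 24 h median went to -0.030 with at least 5 FPKM.

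Each group is 1 pooled value, so no replicate was left out. No paired analysis was possible because the columns pool the 2 libraries of each group. The tables hold no depth per library.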

Other observations

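Several loci share the stretches of the NMDA receptor genes without being members. Gm26653, on the strand opposite Grin2b, read 0.764, 0.761 and 1.07 FPKM in saline and 0.653, 0.783 and 0.952 in cocaine at 2 h, 24 h and 7 d. Both of its 7 d values were above its earlier ones, and all 6 lay near or under 1 FPKM. A relation to the Grin2b values was not tested. At 24 h Grin2c and Grin3a each had an extra locus that neighbouring identifiers placed on neither strand, at 0.682 and 0.208 FPKM for Grin2c and 0.296 and 0.508 for Grin3a in saline and cocaine. At 7 d the Grin2d stretch was joined with that of Kdelr1, a retention receptor of the endoplasmic reticulum, which read 33.8 and 34.7 FPKM.

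Endothelial markers had a median log2 ratio of 0.13 at 2 h, -0.08 at 24 h and 0.16 at 7 d over 5 genes. These are the directions of the scaffold list and of the astrocyte markers at the 3 times. Oligodendrocyte markers read -0.08, -0.19 and 0.03 over 7 genes, and microglia markers 0.08, -0.13 and 0.01 over 6. Of 6 striatal markers with a mean of at least 1 FPKM at 7 d, 1 was at least 1.2-fold higher (Adora2a, 0.68). Another 2 were lower (Rgs9, -0.37, and Tac1, -0.62), beside 8.3% and 11.9% of all loci. Adora2a read 0.805 FPKM in saline and 1.35 in cocaine, so it passed the filter only through the group where it was higher. The part of these cells or of the dissection in the member values was not tested.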
